A study of Homo sapiens with 48 samples.

Results

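The D-type cyclins, their kinases and the inhibitors of those kinases were followed as 10 genes chosen by name: CCND1, CCND2, CCND3, CDK4, CDK6, CDKN1A, CDKN1B, CDKN1C, CDKN2B and CDKN2C, out of 58870 genes counted. RNA was sequenced from 48 libraries of cell lines from uveal melanoma, the melanoma of the eye: 92-1, MEL202 and MP41, 3 lines that are all labelled wild type in genotype. Each line received FHT-1015, which inhibits SMARCA4 and SMARCA2, the ATPases of the BAF chromatin remodelling complexes, or DMSO as the negative control, for 4 or 24 h. Line 92-1 also received IDE196, a protein kinase C inhibitor, for the same times, with a second set of DMSO libraries of its own. This gave 16 groups of 3 libraries that the labels call biological replicates, and 4 experiments of 12 libraries (a line, a drug, its DMSO, both times). No dose is stated in the labels. Each line is a single established culture, so spread between replicates is spread between cultures of that line.

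The D cyclins bind CDK4 and CDK6 in early G1, and the complexes phosphorylate the retinoblastoma protein, which then releases the E2F factors that drive S phase genes. CCND1 is a classical target of growth factor and MAPK signalling. The INK4 inhibitors, CDKN2B (p15) and CDKN2C (p18), bind CDK4 and CDK6 directly. The Cip/Kip inhibitors, CDKN1A (p21), CDKN1B (p27) and CDKN1C (p57), bind cyclin-CDK complexes more broadly, and CDKN1A and CDKN1B also help D cyclins and CDK4 to assemble. Uveal melanomas usually carry activating mutations of GNAQ or GNA11, which signal through protein kinase C to the MAPK pathway. All these proteins are also controlled by phosphorylation, localisation and degradation, which RNA does not show.

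Libraries held between 11394088 and 32317711 reads in genes, and between 17592 and 27150 genes had at least 1 read. Replicates were closest in the experiments of 92-1, with a biological coefficient of variation of 0.117 for FHT-1015 and 0.112 for IDE196, and were wider apart in MP41 (0.217) and MEL202 (0.294). The 7 melanocyte lineage markers (MITF, SOX10, PMEL, MLANA, TYR, DCT and TYRP1) summed to between 7880 and 23060 CPM (reads of a gene scaled to library size) in DMSO libraries. With FHT-1015 at 24 h their sum was 4854 to 5320 CPM in 92-1 (DMSO 18994 to 23060), 2748 to 3187 in MEL202 (DMSO 7880 to 9597) and 5369 to 5934 in MP41 (DMSO 11635 to 12629), below every DMSO library. With IDE196 at 24 h it was 18525 to 20885 CPM, beside 16799 to 19435 in DMSO. The part of this in the 24 h results of FHT-1015 was not tested. Immune markers summed to at most 4.57 CPM, endothelial markers to at most 1.7 CPM, epithelial markers to at most 24.2 CPM and fibroblast markers to at most 42.0 CPM, and their part in the results was not tested. In these bulk libraries, fewer cells that express a gene and less RNA per cell cannot be told apart, and neither can the share of cells in each phase of the cycle.

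Upstream sequence was available for 7 of the 10 genes, in 12 promoters among 35116 of the RefSeq table (build GRCh38.p14), and the 250 bases before each start were searched on both strands. The motifs were the E-box CACGTG, the CRE TGACGTCA, the AP-1 site TGANTCA, the SOX site ACAANG, the FOXO site TGTTTAC and the E2F sites TTTGGCGC and GGCGGGAA. These letters occur in 6.34%, 1.65%, 6.57%, 30.9%, 2.98%, 0.55% and 2.72% of all promoters of that length, in the same order. The upstream stretches of 4 genes are printed here 5′ to 3′ on the gene's strand, with matches in capitals: that of CDK4, whose RNA fell in all experiments at 24 h, and those of the inhibitors CDKN1B, CDKN2B and CDKN2C, which rose in some of them.
CDK4 (chr12:57752311-57752560, minus strand): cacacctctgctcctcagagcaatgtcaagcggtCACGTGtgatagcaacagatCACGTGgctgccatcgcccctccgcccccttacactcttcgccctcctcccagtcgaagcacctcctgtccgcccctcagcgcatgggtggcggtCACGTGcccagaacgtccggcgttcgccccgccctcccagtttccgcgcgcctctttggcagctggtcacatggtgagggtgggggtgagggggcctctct
CDKN1B (chr12:12717118-12717367, plus strand): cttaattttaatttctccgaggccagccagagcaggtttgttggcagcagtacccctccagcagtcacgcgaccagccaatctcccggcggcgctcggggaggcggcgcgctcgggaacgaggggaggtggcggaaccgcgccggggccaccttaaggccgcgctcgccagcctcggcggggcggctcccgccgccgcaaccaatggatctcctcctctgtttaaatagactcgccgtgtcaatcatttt
CDKN2B (chr9:22009306-22009555, minus strand): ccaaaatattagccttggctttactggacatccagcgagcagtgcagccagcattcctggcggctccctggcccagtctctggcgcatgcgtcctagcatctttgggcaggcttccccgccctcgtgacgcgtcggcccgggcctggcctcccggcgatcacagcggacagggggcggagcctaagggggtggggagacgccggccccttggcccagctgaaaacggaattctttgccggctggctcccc
CDKN2C, the third of 3 promoters (chr1:50969995-50970244, plus strand): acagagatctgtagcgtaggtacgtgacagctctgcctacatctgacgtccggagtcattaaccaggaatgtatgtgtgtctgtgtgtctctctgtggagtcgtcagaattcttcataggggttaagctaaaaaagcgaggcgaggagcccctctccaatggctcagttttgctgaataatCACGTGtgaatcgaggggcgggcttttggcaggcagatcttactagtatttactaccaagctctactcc
The CDK4 stretch held 3 E-boxes, beginning at -216, -196 and -101 from the start, and 0.0797% of all promoters held 3 or more. The number 3 was taken from this stretch itself, so that share is a description and not a test. The third CDKN2C promoter held 1 E-box at -69, the first held an E-box at -220 and a SOX match at -117, and the second held GGCGGGAA at -132. The stretches of CDKN1A, CDKN1B and CDKN2B held none of these letters. Among the other promoters, the first of CCND3 held SOX matches at -71 and -6, and the second of CDK6 held 1 at -109. A match is a run of letters and not evidence of binding.

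In DMSO, CCND1, CDK4 and, outside 92-1, CDKN1A stood highest per length, and CDKN2B stood lowest of the 9 genes detected well in every library, except in MEL202, where CDKN1C (7.69 CPM per kb) was below CDKN2B (8.42). Levels between genes are compared as CPM per kb of exon. In the first DMSO set of 92-1, CDK4 had 64.7 and CCND1 63.2 CPM per kb (means of 6 libraries), and their ranges overlapped (58.3 to 70.9 and 59.7 to 67.6). CDKN1B followed at 27.4, CDKN1A at 21.4, CCND3 at 14.6, CDK6 at 9.13, CDKN1C at 6.05, CDKN2C at 3.81 and CDKN2B at 1.84 CPM per kb. Within this order, the ranges of CDKN1B (23.8 to 31.7) and CDKN1A (18.0 to 25.0) overlapped, as did those of CDK6 (7.45 to 10.2) and CDKN1C (3.68 to 7.96), and of CDKN1C and CDKN2C (3.14 to 4.63). In MEL202, CDKN1A led at 108 CPM per kb (87.6 to 126), within the range of CCND1 (54.1 to 112), and CDK4 stood at 45.1. MP41 had nearly the same level of CDKN1A, 104 CPM per kb (80.0 to 119), beside 102 for CCND1 (78.1 to 147) and 48.1 for CDK4. Exons of CDK4 share 43.2% of their bases with TSPAN31 on the opposite strand, and the libraries do not keep strand. Reads in more than 1 gene are listed as ambiguous outside the gene counts, and the part of this in the level of CDK4 per kb was not tested. CCND1 shares 10.3% of its exon bases with LTO1, CCND2 13.8% with AC008012.1 and CDKN1A 4.8% with DINOL.

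**Figure D1:**
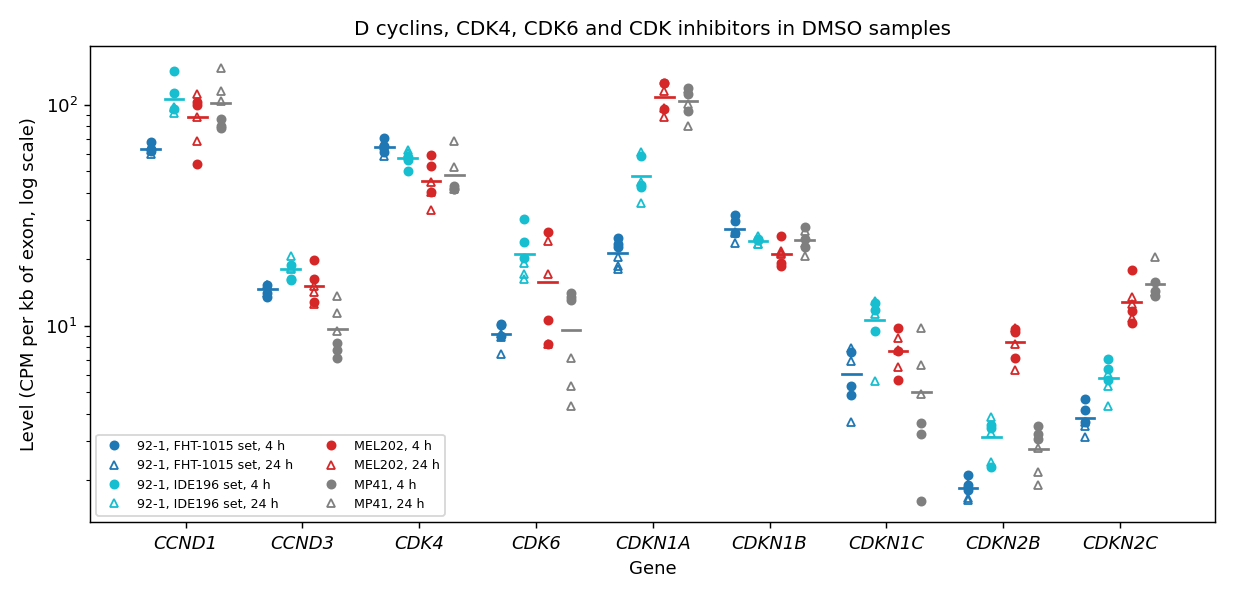
Level of 9 genes in DMSO libraries, in CPM per kb of exon on a log axis. Each point is 1 library (circle 4 h, open triangle 24 h), each bar the mean of 6 libraries, and colours give the line and library set; CCND2 is not drawn because several libraries had 0 reads. CDKN1A averaged 108 and 104 CPM per kb in MEL202 and MP41 against 21.4 and 47.7 in the sets of 92-1.

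CCND2 (chromosome 12, 4273772 to 4305350, plus strand) was near the limit of detection. It had between 0 and 11 reads in a library, more than 3 reads in 13 of 48 libraries, and at most 0.766 CPM. The filter on low counts removed it from the fit of each of the 4 experiments, so 9 of 10 genes were tested there. In the fit of all 24 libraries of 92-1 it passed the filter and was not called.

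Against the first DMSO set of 92-1, MEL202 differed most in CDKN1A, CDKN2B and CDKN2C, and MP41 most in CDKN1A and CDKN2C. MEL202 had 329 CPM of CDKN1A (SD 50.1, n = 6) and the first set of 92-1 had 65.2 (SD 8.48, n = 6), a log2 difference of 2.37 (SE 0.14, edgeR adjusted p = 1.37e-12). For MP41, with 316 CPM (SD 46.1, n = 6), the difference from that set was 2.32 (SE 0.14, adjusted p = 1.06e-12). CDKN2C was higher than in that set by 1.78 in MEL202 and by 2.05 in MP41 on the log2 scale (adjusted p = 4.09e-10 and 2.1e-11). CDKN2B was highest in MEL202, by 2.22 over the first set of 92-1 (adjusted p = 1.68e-11) and by 1.61 over MP41 (adjusted p = 1.93e-09), while MP41 was 0.60 above that set (adjusted p = 0.00118). CCND3 was lower in MP41 than in that set by 0.59 and lower than in MEL202 by 0.67 on the log2 scale (adjusted p = 0.000109 and 2.89e-05). Of the 9 genes, 7 differed between MEL202 and this set, 6 between MP41 and this set and 4 between MP41 and MEL202. These shares stand beside 55.4%, 67.3% and 58.3% of all genes tested, so the 9 genes were not unusual in differing between lines.

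Sets of libraries of the same line also differed. The second DMSO set of 92-1 differed from the first in 7 of the 9 genes, with 39.1% of all genes tested called, and all 7 were higher in the second set. CDK6 was higher by 1.23 (SE 0.23) and CDKN1A by 1.20 (SE 0.14) on the log2 scale, with edgeR adjusted p of 0.000221 and 1.04e-06. CDKN1C differed by 0.85, CDKN2B by 0.81, CCND1 by 0.78, CDKN2C by 0.64 and CCND3 by 0.34, a call lost with library size alone and with no filter (adjusted p = 0.0762 and 0.0631). Against the second set, the CDKN1A difference was 1.16 for MEL202 and 1.11 for MP41 (adjusted p = 1.55e-07 and 1.83e-07). Against that set CDKN2C was higher by 1.14 in MEL202 and 1.41 in MP41, CDKN2B was higher by 1.41 in MEL202, and CDKN2B in MP41 was not called (-0.21, adjusted p = 0.226). MP41 differed from the second set in CDK6 (-1.26) and CDKN1C (-1.25) by more than in CDKN1A. CCND1, called higher in both other lines against the first set (0.49 in MEL202 and 0.69 in MP41), was not called against the second (adjusted p = 0.0881 and 0.594). Line and library set cannot be told apart in these comparisons, and each drug was therefore compared only with its own DMSO libraries.

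Drug effects on the 9 genes were called by edgeR's quasi-likelihood test with p adjusted by Benjamini-Hochberg over all genes tested and a threshold of 0.05. With FHT-1015 at 4 h in 92-1, 1 of 9 was higher (CDK6) and 7 were lower, where 12.9% of all genes tested were higher and 16.7% lower. At 24 h in 92-1, 2 were higher (CDKN1B and CDKN2B) and 5 lower, against 29.2% and 31.4% of all genes. In MEL202 at 4 h, 0 of 9 were higher, also by DESeq2 and limma-voom and at an unadjusted p under 0.05, and 1 was lower (CDKN1A), with 0.157% of all genes higher and 0.522% lower. At 24 h in MEL202, 2 were higher (CDKN2B and CDKN2C) and 4 lower, where 8.69% and 10.1% of all genes were called. In MP41 at 4 h, 0 of 9 were called by edgeR, with 0 higher and 2 lower at an unadjusted p under 0.05, while 0.0708% of all genes were higher and 0.154% lower. DESeq2 called 0 there too, and limma-voom 0 higher and 2 lower. At 24 h in MP41, 2 were higher (CDKN1B and CDKN2B) and 5 lower, against 17.4% and 18.7%. With IDE196, 2 of 9 were higher (CDKN1B and CDKN2C) and 3 lower at 4 h, where 6.89% and 9.3% of all genes were called. At 24 h with IDE196, 3 were higher (CDKN1B, CDKN1C and CDKN2C) and 4 lower, against 28.7% and 29.4%. CCND1, CCND3 and CDK4 were among those lower in all 4 experiments at 24 h.

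**Figure D2:**
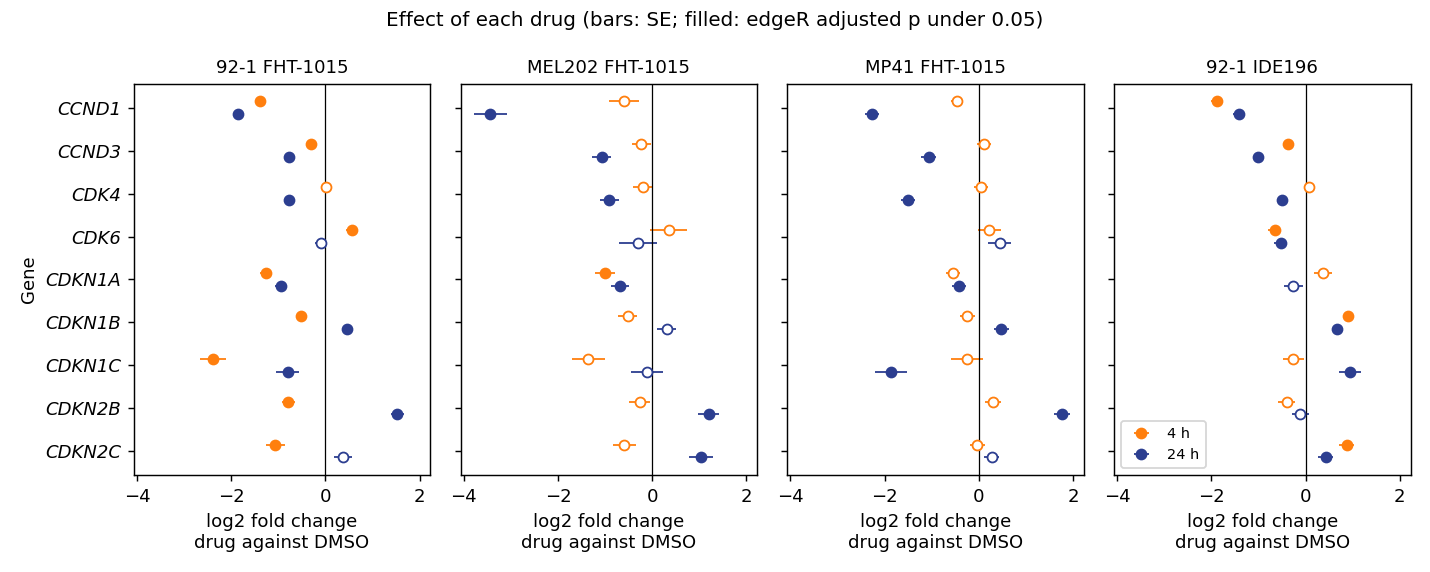
Log2 fold change of 9 genes, drug against its own DMSO, in each experiment at 4 h (orange) and 24 h (blue). Points are edgeR estimates from 12 libraries with bars of 1 SE, and filled points passed the adjusted p threshold. At 24 h CCND1, CCND3 and CDK4 lie left of 0 in all 4 panels, and CDKN2B lies right of 0 in the 3 panels of FHT-1015 (1.53, 1.20 and 1.77).

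Among the D cyclins, CCND1 (chromosome 11, 69641087 to 69654474, plus strand) changed most. In 92-1 at 4 h its 3 DMSO libraries had 304, 297 and 327 CPM and its 3 FHT-1015 libraries 118, 122 and 120 CPM. At 24 h they had 314, 289 and 301 CPM in DMSO and 87.8, 84.0 and 81.3 CPM with FHT-1015. The treated libraries lay well below every DMSO library at both times, a 2.62-fold fall at 4 h (log2 -1.39, SE 0.07, adjusted p = 3.11e-09) and a 3.62-fold fall at 24 h (log2 -1.86, SE 0.07, adjusted p = 1.77e-11).

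In MEL202 the DMSO libraries of CCND1 were spread out, at 499, 482 and 261 CPM at 4 h, and overlapped with 231, 411 and 181 CPM under FHT-1015. That early difference was not called (log2 -0.59, SE 0.32, adjusted p = 0.664). At 24 h DMSO gave 332, 541 and 424 CPM and FHT-1015 gave 38.2, 37.0 and 43.4 CPM. This 10.8-fold fall (log2 -3.43, SE 0.35, adjusted p = 2.46e-05) was the largest of any of the 9 genes in the 8 comparisons. In MP41 at 4 h CCND1 had 387, 417 and 377 CPM in DMSO and 275, 312 and 275 CPM with FHT-1015, groups that did not overlap and whose difference was not called (log2 -0.46, SE 0.13, adjusted p = 0.288). With limma-voom, and in a fit of only the 6 libraries compared, that difference was called. At 24 h it had 502, 711 and 557 CPM in DMSO and 116, 123 and 113 CPM with FHT-1015, a 4.81-fold fall (log2 -2.27, SE 0.14, adjusted p = 1.41e-07).

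CCND1 was lower with IDE196 as well. At 4 h DMSO libraries had 687, 463 and 545 CPM and IDE196 libraries 156, 149 and 154 CPM, a 3.71-fold fall (log2 -1.89, SE 0.12, adjusted p = 1.11e-08). At 24 h the values were 445, 469 and 474 CPM against 188, 156 and 194 CPM, a 2.67-fold fall (log2 -1.42, SE 0.12, adjusted p = 1.71e-08). The fall under IDE196 was smaller at 24 h than at 4 h by 0.47 (SE 0.16, adjusted p = 0.0346), a call lost in 9 of 12 fits without a library and with limma-voom (adjusted p = 0.0722, highest of all fits 0.0931). Under FHT-1015 in the same line the fall was larger at 24 h (difference -0.47, SE 0.10, adjusted p = 0.00125), and no alternative or left-out library ended that call.

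CCND3 (chromosome 6, 41934933 to 42050357, minus strand), a D cyclin with broad expression, moved less and later. In 92-1 at 24 h it had 88.5, 89.0 and 81.3 CPM in DMSO and 54.5, 50.8 and 48.6 CPM with FHT-1015 (log2 -0.77, SE 0.09, adjusted p = 2.47e-06). MEL202 at 24 h gave 87.6, 73.1 and 82.3 CPM against 38.5, 41.4 and 34.4 CPM (log2 -1.07, SE 0.20, adjusted p = 0.00236). MP41 at 24 h gave 66.4, 79.0 and 54.8 CPM against 25.9, 34.4 and 31.1 CPM (log2 -1.06, SE 0.16, adjusted p = 0.00015). In each line every treated library was below every DMSO library. With IDE196 at 24 h the values were 106, 120 and 105 CPM in DMSO and 55.9, 60.9 and 51.9 CPM in treated libraries (log2 -1.02, SE 0.09, adjusted p = 5.84e-08). At 4 h CCND3 stood at -0.23 in MEL202 and 0.11 in MP41 with FHT-1015, neither called, and was lower in 92-1, by 0.31 with FHT-1015 (SE 0.09, adjusted p = 0.0144) and by 0.38 with IDE196 (SE 0.09, adjusted p = 0.0073) on the log2 scale. The FHT-1015 call at 4 h was lost without DMSO replicate 2, without FHT-1015 replicate 1 and with no filter on low counts (highest adjusted p = 0.0771). The IDE196 call at 4 h was lost without DMSO replicate 5 (adjusted p = 0.0505).

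CDK4 (chromosome 12, 57747727 to 57756013, minus strand), the G1 kinase, was not called at 4 h and was lower in all 4 experiments at 24 h. At 4 h FHT-1015 gave log2 fold changes of 0.01 (92-1), -0.20 (MEL202) and 0.05 (MP41), and IDE196 gave 0.07. At 24 h in MP41 it had 166, 217 and 132 CPM in DMSO and 52.9, 59.6 and 60.2 CPM with FHT-1015, a 2.84-fold fall (log2 -1.51, SE 0.15, adjusted p = 5.77e-06). In 92-1 it had 215, 185 and 207 CPM against 129, 122 and 107 CPM (log2 -0.78, SE 0.09, adjusted p = 1.75e-06). MEL202 gave 106, 127 and 142 CPM against 62.9, 65.6 and 67.9 CPM (log2 -0.91, SE 0.20, adjusted p = 0.00677). IDE196 gave the smallest fall of the 4, from 198, 191 and 186 CPM to 145, 140 and 132 CPM (log2 -0.51, SE 0.08, adjusted p = 3.38e-05). The groups did not overlap in any of the 4 experiments at 24 h. Taking the sum of the reads counted on each strand separately, in place of the unstranded counts, kept these 24 h calls.

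CDK6 (chromosome 7, 92604921 to 92836594, minus strand), the other partner of D cyclins, moved in opposite directions with the drugs in 92-1 at 4 h. FHT-1015 libraries had 213, 176 and 151 CPM and their DMSO libraries 123, 110 and 125 CPM, a rise of 0.57 on the log2 scale (SE 0.13, adjusted p = 0.00353). IDE196 libraries had 196, 190 and 193 CPM and their DMSO libraries 371, 249 and 292 CPM, a fall of 1.58-fold (log2 -0.66, SE 0.14, adjusted p = 0.00244). The DMSO libraries of both sets did not overlap, and the treated libraries of both drugs had similar CPM. At 24 h CDK6 was lower with IDE196 (log2 -0.53, SE 0.14, adjusted p = 0.00284), and with FHT-1015 it stood at -0.10 in 92-1, -0.30 in MEL202 and 0.44 in MP41, none of which edgeR called. Limma-voom called the MP41 value (adjusted p = 0.021). At 4 h with FHT-1015 its log2 fold changes of 0.35 in MEL202 and 0.22 in MP41 were not called. In MEL202 its DMSO libraries ranged from 101 to 327 CPM at 4 h and from 101 to 295 CPM at 24 h.

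**Figure D3:**
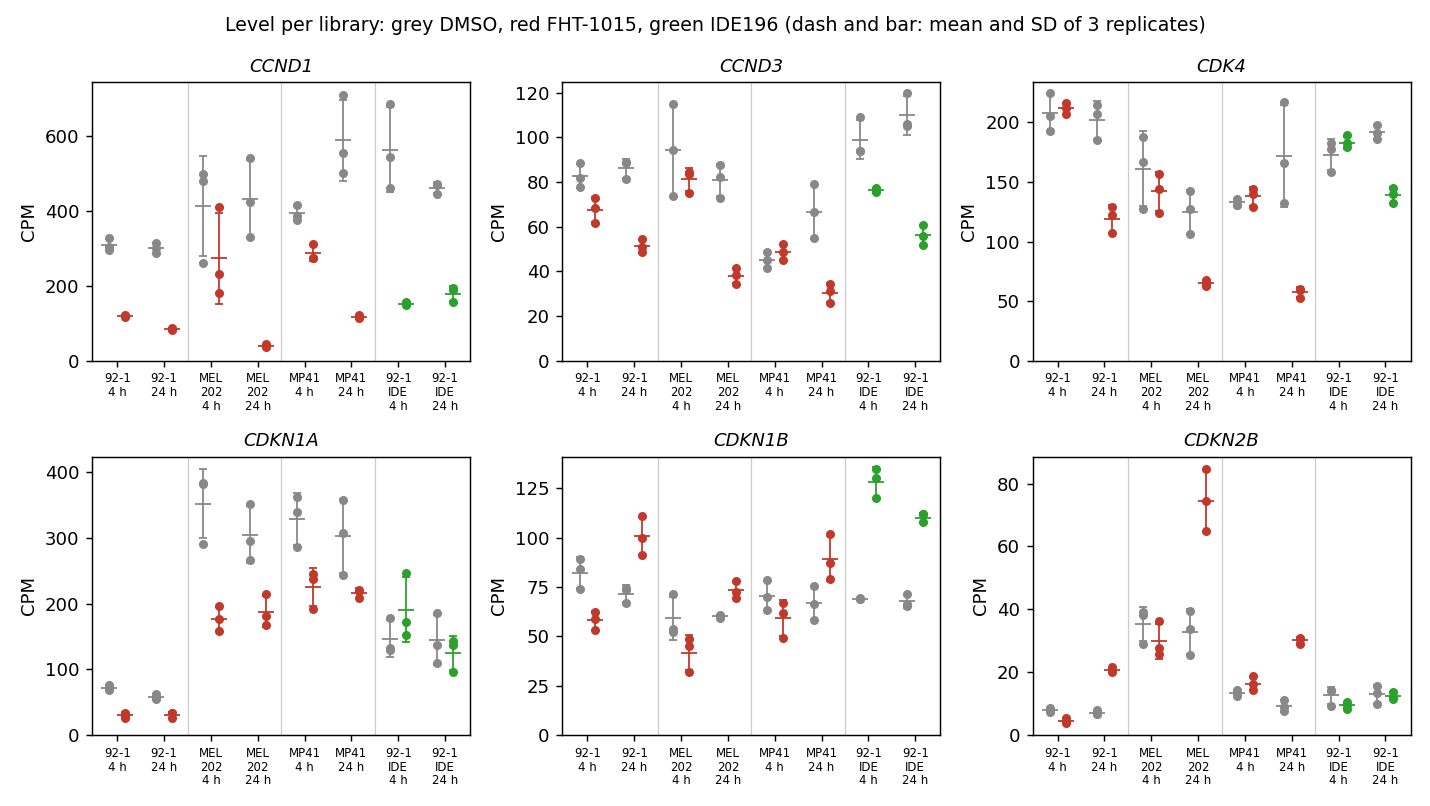
Level of 6 genes in each library, in CPM on linear axes from 0, by experiment and time. Grey points are DMSO, red FHT-1015 and green IDE196 libraries, with the mean and SD of 3 replicates. CCND1 under FHT-1015 at 24 h sits between 37.0 and 123 CPM in the 3 lines, below every DMSO library, and CDKN2B is above its DMSO libraries there.

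Of the Cip/Kip inhibitors, CDKN1A (chromosome 6, 36676460 to 36687339, plus strand), best known as a target of p53, was lower with FHT-1015 and, with low counts filtered, was not called with IDE196. In 92-1 at 4 h it had 76.1, 71.7 and 69.2 CPM in DMSO and 31.3, 26.3 and 34.0 CPM with FHT-1015, a 2.41-fold fall (log2 -1.27, SE 0.12, adjusted p = 7.86e-07). At 24 h the values were 57.1, 54.8 and 62.2 CPM against 32.9, 33.0 and 25.7 CPM (log2 -0.95, SE 0.12, adjusted p = 4.08e-06). MEL202 at 4 h had 383, 291 and 382 CPM against 159, 196 and 176 CPM (log2 -1.0, SE 0.21, adjusted p = 0.042), and at 24 h 267, 296 and 352 CPM against 168, 181 and 214 CPM (log2 -0.68, SE 0.20, adjusted p = 0.0324). In MP41 at 24 h it had 308, 358 and 244 CPM against 220, 208 and 221 CPM (log2 -0.42, SE 0.15, adjusted p = 0.0438), after -0.55 at 4 h, which was not called (adjusted p = 0.235) but was with limma-voom and with only the 6 libraries compared. Treated and DMSO libraries did not overlap in any of these 6 comparisons. Outside 92-1 these calls lie close to the threshold. Leaving out 1 library ended that of MEL202 at 4 h in 10 of 12 fits. It also missed the threshold with the replicate number as a block (adjusted p = 0.0591), with library size alone as the scaling and in a fit of only the 6 libraries compared (adjusted p = 0.598). At 24 h the call went with 5 of 12 left-out libraries in MEL202 and with 7 of 12 in MP41. It was also lost with no filter on low counts in both lines (adjusted p = 0.0724 and 0.0871) and in MP41 with only the 6 libraries compared (adjusted p = 0.0985). With IDE196 the log2 fold changes were 0.37 at 4 h (adjusted p = 0.235) and -0.26 at 24 h (adjusted p = 0.283), and the groups overlapped at both times. A fit with no filter called both values (adjusted p = 0.00705 and 0.047).

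CDKN1B (chromosome 12, 12715058 to 12722371, plus strand), a brake on CDK2 and a known FOXO target, fell and then rose with FHT-1015 in 92-1 and rose at both times with IDE196. In 92-1 at 4 h it had 73.8, 89.0 and 84.1 CPM in DMSO and 59.0, 62.5 and 53 CPM with FHT-1015 (log2 -0.52, SE 0.10, adjusted p = 0.00121). At 24 h it had 66.9, 73.5 and 74.6 CPM in DMSO and 111, 99.9 and 91.3 CPM with FHT-1015 (log2 0.47, SE 0.10, adjusted p = 0.000995). The 24 h effect exceeded the 4 h effect by 0.99 (SE 0.14, adjusted p = 5.41e-05). At 4 h MEL202 gave the same -0.52 with a wider error (SE 0.20), in groups that did not overlap, and MP41 gave -0.25 in groups that did, and neither was called (adjusted p = 0.421 and 1.0). MP41 at 24 h had 58.2, 75.6 and 66.5 CPM against 79.0, 87.4 and 102 CPM (log2 0.48, SE 0.15, adjusted p = 0.0266), a call lost in 5 of 12 fits without a library, with no filter (adjusted p = 0.0732) and with only the 6 libraries compared (adjusted p = 0.147). MEL202 at 24 h had 60.1, 59.2 and 61.0 CPM against 72.5, 69.4 and 78.0 CPM, groups that did not overlap and a difference that was not called (log2 0.31, SE 0.20, adjusted p = 0.334), although limma-voom and a fit of only the 6 libraries called it (adjusted p = 0.00946 and 0.0482). With IDE196 CDKN1B rose from 68.7, 69.4 and 68.9 CPM to 130, 120 and 135 CPM at 4 h, 1.85-fold (log2 0.89, SE 0.08, adjusted p = 5.2e-07). At 24 h it stood at 65.6, 66.2 and 71.4 CPM in DMSO and 108, 112 and 112 CPM with IDE196, 1.58-fold (log2 0.66, SE 0.08, adjusted p = 1.23e-06).

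CDKN1C (chromosome 11, 2883213 to 2885773, minus strand), an imprinted inhibitor of CDKs, was the least abundant Cip/Kip member and differed most between experiments. In 92-1 at 4 h it had 13.2, 12 and 18.8 CPM in DMSO and 2.3, 3.0 and 3.36 CPM with FHT-1015, a 5.19-fold fall (log2 -2.38, SE 0.27, adjusted p = 8.99e-06). At 24 h it had 9.12, 17.2 and 19.7 CPM against 9.55, 8.55 and 8.62 CPM, groups that overlapped (log2 -0.80, SE 0.25, adjusted p = 0.0113), and the call was lost without DMSO replicate 3 (adjusted p = 0.0669). MP41 showed the reverse order in time, with -0.25 at 4 h (adjusted p = 1.0) and a 3.65-fold fall at 24 h (log2 -1.87, SE 0.34, adjusted p = 0.000924). Its MP41 libraries at 24 h had 16.5, 24.3 and 12.2 CPM in DMSO and 2.97, 5.71 and 5.07 CPM with FHT-1015. The DMSO libraries of MP41 at 4 h had 4.01, 9.0 and 8.06 CPM, lower than those at 24 h, a difference that was not called (log2 1.24, SE 0.34, adjusted p = 0.0639). The FHT-1015 libraries of MP41 at 4 h had 4.39, 8.0 and 5.3 CPM and overlapped with those at 24 h. From 4 h to 24 h the mean in MP41 went from 7.03 to 17.7 CPM in DMSO and from 5.9 to 4.58 CPM with FHT-1015. MEL202 gave -1.35 at 4 h (SE 0.35, adjusted p = 0.126), which DESeq2, limma-voom and a fit without the low-count filter called, and -0.10 at 24 h (adjusted p = 0.887). With IDE196 CDKN1C stood at -0.26 at 4 h (adjusted p = 0.519) and was higher at 24 h, at 39.7, 53.7 and 53.3 CPM against 14.0, 28.0 and 32.1 CPM (log2 0.94, SE 0.23, adjusted p = 0.00174).

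Of the INK4 inhibitors, CDKN2B (chromosome 9, 22002903 to 22009363, minus strand), a known TGF-beta target, rose in all 3 lines with FHT-1015 at 24 h. In 92-1 it had 7.83, 6.75 and 6.63 CPM in DMSO and 20.4, 21.7 and 20.2 CPM with FHT-1015, a 2.88-fold rise (log2 1.53, SE 0.13, adjusted p = 8.03e-08). MEL202 gave 25.5, 33.6 and 39.6 CPM against 64.8, 84.5 and 74.4 CPM (log2 1.20, SE 0.23, adjusted p = 0.00215). MP41 gave 8.81, 11.3 and 7.71 CPM against 29.1, 30.7 and 30.8 CPM, a 3.41-fold rise (log2 1.77, SE 0.17, adjusted p = 4.08e-06). Every treated library lay above every DMSO library of its line, and no alternative or left-out library ended these calls. At 4 h it was lower in 92-1, with 7.33, 7.69 and 8.61 CPM in DMSO and 5.38, 4.42 and 4.0 CPM with FHT-1015 (log2 -0.79, SE 0.14, adjusted p = 0.000469). It stood at -0.26 in MEL202 and 0.30 in MP41 at 4 h, neither of which was called. With IDE196 it was not called, at -0.40 at 4 h (adjusted p = 0.162) and -0.11 at 24 h (adjusted p = 0.613).

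CDKN2C (chromosome 1, 50960745 to 50974633, plus strand), the other INK4 member, rose with FHT-1015 at 24 h in MEL202, from 44.7, 36.1 and 41.6 CPM to 75.1, 90.1 and 83.0 CPM, 2.06-fold (log2 1.04, SE 0.25, adjusted p = 0.00927). In 92-1 it fell at 4 h, from 12.2, 13.8 and 15.4 CPM to 5.07, 6.87 and 8.46 CPM (log2 -1.06, SE 0.20, adjusted p = 0.000773), and at 24 h its difference of 0.37 was not called (adjusted p = 0.106). MEL202 at 4 h stood at -0.59, which was not called (adjusted p = 0.483), and MP41 at -0.03 and 0.27, neither called by edgeR. Limma-voom called the MP41 value at 24 h (0.45, adjusted p = 0.000789). With IDE196 it rose at 4 h from 21.1, 23.4 and 18.9 CPM to 38.3, 40.6 and 37.6 CPM, 1.83-fold (log2 0.87, SE 0.16, adjusted p = 0.00081). At 24 h the difference was smaller, 0.43 (SE 0.16, adjusted p = 0.0283), and that call was lost without DMSO replicate 4, DMSO replicate 6 or IDE196 replicate 2 (highest adjusted p = 0.295).

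Time changed the effect of FHT-1015 on 8 of the 9 genes in 92-1 (45.5% of all genes tested), on 3 in MEL202 (6.89%; 7 with limma-voom) and on 6 in MP41 (18.6%), and that of IDE196 on 4 (30.7%). In MP41 the calls for CDKN1B (0.74, adjusted p = 0.0325) and CDKN1C (-1.62, adjusted p = 0.0321) lay near the threshold, the first lost in 8 of 12 fits without a library and with no filter (adjusted p = 0.0686), the second in 6 of 12 (highest adjusted p = 0.0931). For CDKN2B the effect at 24 h exceeded that at 4 h by 2.32 in 92-1, 1.46 in MEL202 and 1.47 in MP41 on the log2 scale (adjusted p = 1.8e-07, 0.014 and 0.000779), and the MEL202 call was lost without FHT-1015 replicate 2 of 24 h (adjusted p = 0.0553). For CCND1 the effect was further below 0 at 24 h, by -0.47, -2.83 and -1.81 (adjusted p = 0.00125, 0.00259 and 4.31e-05). CDK4 differed with time in 92-1 (-0.79), MP41 (-1.56) and IDE196 (-0.59), and in MEL202 its -0.71 was not called by edgeR (adjusted p = 0.169) but was by limma-voom (adjusted p = 0.00855). DMSO itself at 24 h against 4 h gave 1 call among the 9 genes over the 4 experiments, and 1, 0, 5 and 2 of the 9 at an unadjusted p under 0.05 in 92-1, MEL202, MP41 and the IDE196 experiment. This was CDK6 in MP41, with 166, 172 and 161 CPM at 4 h and 65.2, 53 and 88.0 CPM at 24 h (log2 -1.34, SE 0.24, adjusted p = 0.0206). Of all genes tested, DMSO time gave calls for 0.344% (92-1, beside FHT-1015), 0% (MEL202), 2.59% (MP41) and 0.266% (92-1, beside IDE196). In MEL202 edgeR called 0 genes of 15913, with 330 at an unadjusted p under 0.05.

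The size of the FHT-1015 effect differed among the 3 lines at 24 h for 3 of the 9 genes, CCND1, CDK4 and CDKN1C, where 12% of all genes tested differed. CCND1 fell further in MEL202 than in 92-1, by -1.61 (SE 0.30, adjusted p = 0.000638), and further than in MP41 (MP41 minus MEL202 1.10, SE 0.30, adjusted p = 0.0227). CDK4 fell further in MP41 than in 92-1, by -0.83 (SE 0.21, adjusted p = 0.0119). For CDK4 both the test over the 3 lines and this pair lost their call with no filter (adjusted p = 0.205 and 0.15) and with the sum of the stranded columns (adjusted p = 0.436 and 0.32). CDKN1C differed between MP41 and MEL202, by -1.83 (SE 0.48, adjusted p = 0.0182). For CDKN2B, which rose in all 3 lines, a difference among them was not called (adjusted p = 0.306), nor was it for CCND3 (adjusted p = 0.364). At 4 h the test over the 3 lines called 0 of the 9 genes by edgeR (1.38% of all genes), with 5 at an unadjusted p under 0.05. Taken as a pair, MP41 and 92-1 differed at 4 h in CDKN1C (MP41 minus 92-1 2.11, SE 0.50, adjusted p = 0.0194) and CDKN2B (1.08, SE 0.25, adjusted p = 0.0174), the latter lost with no filter (adjusted p = 0.139). Tests among lines, between drugs and between DMSO sets were not repeated with libraries left out.

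In 92-1 the largest differences between the drugs' effects were in inhibitors. The effect of FHT-1015 minus that of IDE196, each against its own DMSO, was called for 6 of 10 genes at 4 h (24.6% of all genes tested) and for 4 at 24 h (33%). At 4 h the difference was -2.12 for CDKN1C (SE 0.40, adjusted p = 0.000193), -1.93 for CDKN2C (SE 0.26, adjusted p = 3.22e-06), -1.65 for CDKN1A (SE 0.26, adjusted p = 2.06e-05) and -1.41 for CDKN1B (SE 0.13, adjusted p = 3.46e-09). These inhibitors were lower with FHT-1015 than with IDE196 relative to their controls. CDK6 differed by 1.23 (SE 0.20, adjusted p = 3.7e-05) and CCND1 by 0.50 (SE 0.14, adjusted p = 0.00845). At 24 h CDKN2B differed by 1.64 (SE 0.23, adjusted p = 2.32e-06), CDKN1C by -1.74 (SE 0.37, adjusted p = 0.00054), CDKN1A by -0.70 (SE 0.26, adjusted p = 0.0392) and CCND1 by -0.44 (SE 0.14, adjusted p = 0.0157). For CDKN1B, CCND3 and CDK4 the differences at 24 h were -0.19 (SE 0.13), 0.25 (SE 0.13) and -0.27 (SE 0.12), and none was called by edgeR on the unstranded counts. With the sum of the stranded columns CDK4 was called (adjusted p = 0.0044), and with no filter CDK6 was (adjusted p = 0.0449, against 0.109), each making 5 genes. Doses are unstated, so the drugs may not have been compared at equal inhibition.

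Genes around the pathway were counted in 7 lists drawn from general knowledge. The 12 E2F target genes of S phase were lower at 24 h in all 4 experiments, 12 of 12 each time. The list's median with FHT-1015 was -2.10 (92-1), -1.23 (MEL202) and -1.45 (MP41) on the log2 scale, and with IDE196 -2.01, while the medians of all genes tested lay between -0.01 and 0.07. CDC6, which loads the replicative helicase, fell most of them in each experiment, from 123 to 11.4 CPM in 92-1 (log2 -3.44, SE 0.17, adjusted p = 2.15e-10), with log2 fold changes of -2.24 in MEL202, -2.45 in MP41 and -3.18 with IDE196. At 4 h 4, 0, 0 and 1 of the 12 were lower by edgeR, in the same order, and 8, 1, 0 and 2 at an unadjusted p under 0.05. Of the 18 G1/S partners of the D cyclin complexes, 13, 10, 12 and 15 were lower and 3, 0, 1 and 1 higher at 24 h. Beside these and the other 24 h counts of lists stand the shares of all genes tested, 31.4%, 10.1%, 18.7% and 29.4% lower and 29.2%, 8.69%, 17.4% and 28.7% higher. At 4 h 8, 0, 0 and 4 of the 18 were lower and 1, 0, 0 and 0 higher by edgeR (9, 1, 1 and 6 lower and 2, 0, 0 and 0 higher at an unadjusted p under 0.05), where 16.7%, 0.522%, 0.154% and 9.3% of all genes were lower and 12.9%, 0.157%, 0.0708% and 6.89% higher. CDK2, the partner of E cyclins, fell most with FHT-1015 in 92-1 (from 457 to 37.0 CPM, log2 -3.65, SE 0.13, adjusted p = 7.46e-12) and in MP41 (from 267 to 30.2 CPM, log2 -3.09, SE 0.20, adjusted p = 1.87e-07). In MEL202 it was CDC25A, a phosphatase that activates CDK2 (log2 -2.62, SE 0.20), and with IDE196 E2F1 (log2 -3.76, SE 0.17). Of 8 mitosis genes, 8, 0, 3 and 7 were lower, led by CDK1 in 92-1 (log2 -1.48 with FHT-1015 and -1.66 with IDE196) and by MKI67 in MP41 (log2 -1.19). In MEL202 the edgeR test called 0 of the 8, and 0 at an unadjusted p under 0.05, with a median of -0.11. At 4 h 2 of the 8 were lower in 92-1 with FHT-1015, and edgeR called 0 in the other 3 experiments, with 1, 0 and 1 lower at an unadjusted p under 0.05. The 4 h shares of all genes given above for the G1/S partners stand beside these counts and those of the E2F targets too.

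Among the lists upstream of the D cyclins and inhibitors, that of MAPK output gave different counts with each drug. All 9 genes of MAPK output were lower with IDE196 at 24 h (median -3.58) and 8 of 9 at 4 h (median -1.66), with SPRY4, a feedback inhibitor of the pathway, down from 120 to 2.42 CPM (log2 -5.68, SE 0.14, adjusted p = 9.73e-15). With FHT-1015 at 24 h 1, 1 and 4 of the 9 were lower and 2, 0 and 1 higher in 92-1, MEL202 and MP41, with medians of -0.13, 0.14 and -0.12. At 4 h 2, 1 and 1 were lower and 3, 1 and 0 higher by edgeR (3, 1 and 4 lower and 3, 2 and 1 higher at an unadjusted p under 0.05). DUSP4, an ERK phosphatase, had the largest called change of the list with FHT-1015 at 24 h. Its log2 fold changes at that time were -2.64 in 92-1, -2.23 in MEL202 and -3.53 in MP41. Whether the lists differed between drugs as lists was not tested. Of 8 FOXO factors and targets, the class that includes CDKN1B among its known targets, 6, 4, 6 and 7 were higher at 24 h and 0 lower, with medians of 1.42, 1.09, 1.26 and 1.69. PIK3IP1, an inhibitor of PI3K, rose most in 92-1 (log2 3.50 with FHT-1015 and 3.80 with IDE196) and MEL202 (1.75), and SESN3, a stress-response sestrin, in MP41 (3.49). At 4 h 6 of the 8 were higher with IDE196, and with FHT-1015 1 was higher and 2 lower in 92-1 and 0 were called by edgeR in MEL202 and MP41 (at an unadjusted p under 0.05, 3 higher in MEL202 and 1 lower in MP41). Beside the 4 h counts of the MAPK and FOXO lists stand the shares of all genes tested. These were 12.9%, 0.157%, 0.0708% and 6.89% higher and 16.7%, 0.522%, 0.154% and 9.3% lower, in 92-1, MEL202, MP41 and with IDE196. The FOXO counts in 92-1 with FHT-1015 lie near these shares, as does the count of MAPK genes lower there.

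Of the p53 targets beside CDKN1A, 5 of 9 were lower and 0 higher (by edgeR and at an unadjusted p under 0.05) in 92-1 with FHT-1015 at 4 h, with a median of -0.37, where CDKN1A fell too. With IDE196 at 4 h 5 were higher and 1 lower, and edgeR called 0 in MEL202 and MP41 (1 and 2 lower, and 0 higher, at an unadjusted p under 0.05). Of all genes tested at 4 h, 12.9%, 0.157%, 0.0708% and 6.89% were higher in 92-1, MEL202, MP41 and with IDE196. In the same order, 16.7%, 0.522%, 0.154% and 9.3% were lower. At 24 h 3, 1, 7 and 4 of 9 were higher and 4, 1, 1 and 1 lower, in 92-1, MEL202 and MP41 with FHT-1015 and in 92-1 with IDE196, with medians of -0.03, 0.41, 0.79 and 0.25. The 24 h counts in 92-1 with FHT-1015 and in MEL202 lie near the shares of all genes called there (29.2% higher and 31.4% lower, 8.69% and 10.1%). TP53I3, an oxidoreductase induced by p53, rose in 92-1 with FHT-1015 (log2 2.03, SE 0.16), while GDF15, a secreted stress factor, fell by 2.33 in MEL202, by 2.10 in MP41 and by 3.87 with IDE196 on the log2 scale. GDF15 went from 338 to 66.6 CPM in MEL202 and from 1621 to 362 CPM in MP41. With IDE196 it went from 5.78 CPM (SD 3.56) to 0.413 CPM. The IDE196 libraries held 4 to 11 reads of it, so that value (SE 0.53) lies near the floor. In MP41 CDKN1A was called lower where 7 of 9 other targets were called higher. That CDKN1A call lay close to the threshold. It was lost in 7 of 12 fits without a library, with no filter and with only the 6 libraries compared. Of the TGF-beta and BMP response list, the class that includes CDKN2B among its known targets, 4, 2, 3 and 3 genes were higher and 1, 2, 1 and 1 lower at 24 h (6 genes tested in 92-1 with FHT-1015 and 7 elsewhere). At 4 h 3, 0, 1 and 4 of them were higher and 2, 1, 0 and 1 lower by edgeR, and 3, 1, 2 and 4 higher and 2, 1, 1 and 1 lower at an unadjusted p under 0.05. Beside these edgeR counts stand the 4 h shares of all genes, 12.9%, 0.157%, 0.0708% and 6.89% higher and 16.7%, 0.522%, 0.154% and 9.3% lower.

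**Figure D4:**
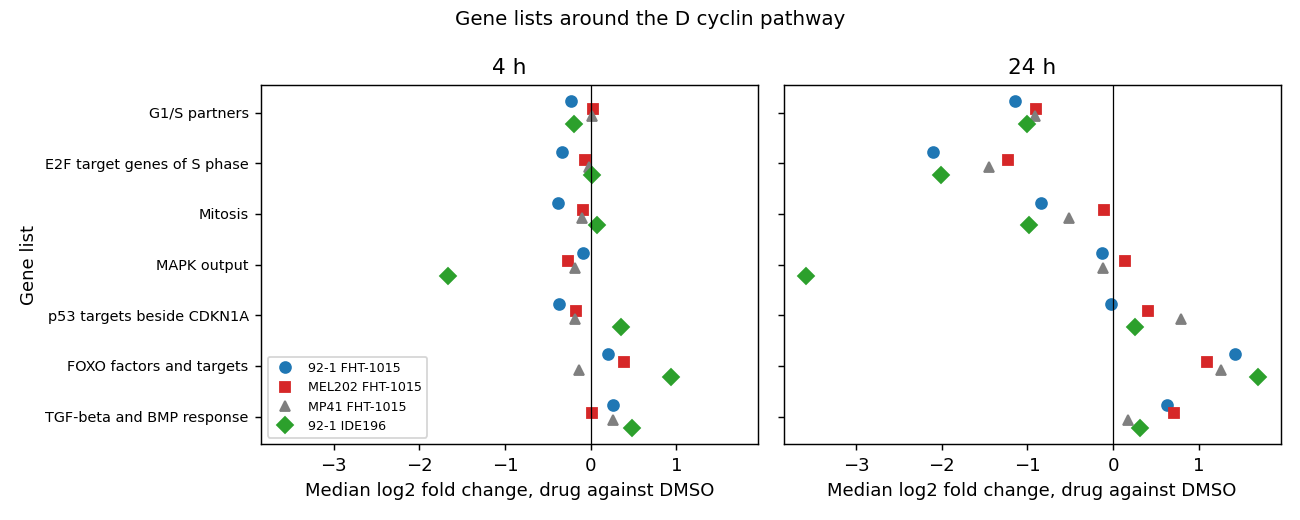
Median log2 fold change of 7 gene lists, drug against its own DMSO, at 4 h (left) and 24 h (right). Each symbol is the median over the tested genes of a list in 1 experiment. At 24 h the E2F targets lie between -2.10 and -1.23 in all 4 experiments, and the MAPK output list lies at -3.58 with IDE196.

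The 9 genes other than CCND2 were correlated over the 48 libraries. Log2 CPM was centred on the mean of each experiment, so the correlations carry the drug and time groups as well as replicate spread, and they are given as a description. CCND1, CCND3 and CDK4 ran together (Pearson r 0.866 for CCND1 with CCND3, 0.868 for CCND3 with CDK4 and 0.754 for CCND1 with CDK4). CDKN1B ran with CDKN2C (0.803), and CDKN2B ran against CDK4 (-0.78). CDKN1A was positive with CCND1, CCND3 and CDK4 (0.55, 0.489 and 0.479), and CDKN1C weakly so (0.279, 0.166 and 0.107). CDK6 had 0.184 with CCND1 and 0.17 with CDK4. Over 10493 protein-coding genes of at least 5 CPM on average, those most like CCND1 were CDC42EP1 (0.935), PPARGC1B (0.923) and DUSP7 (0.916). For CCND3 they were TRNP1 (0.943), DUSP9 (0.935) and TRAF2 (0.931), and for CDK4 HES6 (0.945), CDT1 (0.935) and PUF60 (0.929). CDKN2B was most like GLCCI1 (0.884), CDKN1B and CDKN2C both most like PIM1 (0.848 and 0.827), CDKN1C most like CXXC5 (0.834), CDKN1A most like SLC25A25 (0.833) and CDK6 most like LRRC58 (0.845).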

How the data were processed

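Each deposited file gives the authors' counts of reads for every gene of a library, as whole numbers without normalization, made from poly(A)-selected RNA, per the labels' protocols. The submitters' processing notes name hg38 and limma, and the aligner and annotation are not given in the sources used here. The unstranded column was used, because the first strand held 49.73% to 50.11% of stranded reads in each library. Of 58870 genes, 58552 matched GENCODE release 29 (GRCh38) without version, which gave symbols, positions and exon lengths, and 92 spike-in rows held 0 reads.

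Each experiment of 12 libraries was fitted in edgeR 4.0.16 (R 4.3.3) with TMM scaling, filterByExpr and quasi-likelihood F-tests, on group means alone. An adjusted p (Benjamini-Hochberg over all genes tested) under 0.05 was a call. Standard errors are the log2 fold change over the square root of F. CPM use TMM over the 48 libraries. Lines were compared in 36 libraries, drugs in 24 libraries of 92-1, and DMSO sets in 24 libraries. A floor of 3 reads was used. Alternatives were RLE factors, library size alone, no filter, DESeq2 1.42.0, summed stranded columns, only the 6 libraries compared, a replicate block, leaving out each library of an experiment and, chosen after seeing the data, limma-voom (limma 3.58.1). Depth was 11394088 to 32317711 reads in genes. Read counts are not counts of molecules. Replicate pairs differed beyond sampling noise (chi-square per degree of freedom at least 4.18).

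The rule for named genes took all 10 in every comparison, and the text gives the 9 that could be tested in each comparison of a drug with its DMSO, a choice among them elsewhere, and from each list the called gene with the largest change at 24 h. The gene this gives for 1 list is not reported here. Genes, lists and tests were chosen with earlier results of these data known. Protein sequences were not used here.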

Additional observations from a re-analysis of the deposited data

Results flagged for a closer look

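The values here are effects that differed between lines, drugs or times by a test of the difference itself, with edgeR and an adjusted p over all genes tested. No explanation was tested for any of them.

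Among the 3 lines with FHT-1015 at 24 h, effects differed for CCND1 (adjusted p = 0.000892), CDK4 (adjusted p = 0.0172, not called with no filter or with the sum of the stranded columns) and CDKN1C (adjusted p = 0.0256). CCND1 fell 10.8-fold in MEL202, 4.81-fold in MP41 and 3.62-fold in 92-1.

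Between the drugs in 92-1 at 4 h, the effect of FHT-1015 minus that of IDE196 was 1.23 for CDK6, 0.50 for CCND1, -1.41 for CDKN1B, -1.65 for CDKN1A, -1.93 for CDKN2C and -2.12 for CDKN1C on the log2 scale. CDK6 was called higher with FHT-1015 and lower with IDE196, and CDKN1B and CDKN2C were called lower with FHT-1015 and higher with IDE196. At 24 h the difference was 1.64 for CDKN2B, -0.44 for CCND1, -0.70 for CDKN1A and -1.74 for CDKN1C. The sign of the CCND1 difference turned between the times, a change that was not itself tested. The drugs had separate DMSO sets, which differed from each other in 7 of 9 genes.

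Between times, the FHT-1015 effect at 24 h minus that at 4 h in 92-1 was -0.47 for CCND1, -0.46 for CCND3, -0.79 for CDK4 and -0.67 for CDK6, and 0.99 for CDKN1B, 1.57 for CDKN1C, 2.32 for CDKN2B and 1.43 for CDKN2C. CDKN1B and CDKN2B were called lower at 4 h and higher at 24 h. In MEL202 it was -2.83 for CCND1, 1.46 for CDKN2B (lost without FHT-1015 replicate 2 of 24 h, adjusted p = 0.0553) and 1.63 for CDKN2C. In MP41 it was -1.81 for CCND1, -1.17 for CCND3, -1.56 for CDK4, 0.74 for CDKN1B, -1.62 for CDKN1C and 1.47 for CDKN2B. The CDKN1C difference was 1.57 in 92-1 and -1.62 in MP41. From 4 h to 24 h its mean in MP41 went from 7.03 to 17.7 CPM in DMSO and from 5.9 to 4.58 CPM with FHT-1015. In 92-1 it went from 14.6 to 15.3 CPM in DMSO and from 2.89 to 8.91 CPM with FHT-1015. The MP41 call (adjusted p = 0.0321) was lost in 6 of 12 fits without a library, and the contrast between the lines was not tested. That of CDKN1B in MP41 was lost in 8 of 12. With IDE196 the difference was 0.47 for CCND1 (lost in 9 of 12 such fits and with limma-voom), -0.64 for CCND3, -0.59 for CDK4 and 1.19 for CDKN1C.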

How the results depend on the processing

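Of 558 values of single genes under the alternatives, 535 kept their direction and side of the threshold, 13 gained a call, 9 lost one and 1 changed sign (CDK4 in 92-1 with FHT-1015 at 4 h, -0.04 with limma-voom in place of 0.01). Of 864 values with a library left out, 810 kept both, 34 lost a call, 5 gained one and 15 changed sign, and 0 values that were called changed sign. The cause of these changes was not tested. Genes lower in MEL202 at 4 h numbered 1, but 0 with library size alone, with only the 6 libraries compared and with the replicate block, and 2 with no filter, DESeq2 and limma-voom. They numbered 0 to 2 with a library left out (0 without DMSO replicate 1, 2 without FHT-1015 replicate 2). Genes lower in MP41 at 4 h numbered 0, but 2 with limma-voom and with only the 6 libraries. Genes higher in MP41 at 24 h numbered 2, but 1 with no filter and with only the 6 libraries, 4 with limma-voom, and 1 to 3 with a library left out (1 without DMSO replicate 1, 3 without DMSO replicate 2). Differences between times in MEL202 numbered 3, but 7 with limma-voom, and differences among lines at 4 h numbered 0, but 1 with RLE factors and with no filter. At 24 h they numbered 3, but 2 with no filter and with the sum of the stranded columns, which lost CDK4. Differences between times numbered 2 to 4 in MEL202 (3 with all libraries), 4 to 6 in MP41 (6 with all libraries) and 3 to 5 with IDE196 (4 with all libraries) when a library was left out.

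Uncalled values that crossed 0 with a library left out ranged from -0.05 to 0.06 for CDK4 in 92-1 at 4 h, from -0.25 to 0.00 for CDK6 in 92-1 at 24 h, from -0.62 to 0.06 for CDK6 and from -0.20 to 0.08 for CDKN1C in MEL202 at 24 h, from -0.11 to 0.03 for CDKN2C in MP41 at 4 h and from -0.28 to 0.05 for CDKN2B with IDE196 at 24 h. CDKN1A in MEL202 at 4 h was called only without DMSO replicate 2 or FHT-1015 replicate 2 of that time (highest adjusted p of the others 0.209). At 24 h it was lost without DMSO replicate 2 or 3 or any FHT-1015 replicate (highest 0.145). CDKN1A in MP41 at 24 h was lost without DMSO replicate 1 or 3 of 4 h, DMSO replicate 1 or 2 of 24 h or any FHT-1015 replicate of 24 h (highest 0.122). CDKN1B in MP41 at 24 h was lost without DMSO replicate 1, FHT-1015 replicate 2 or 3, or FHT-1015 replicate 1 or 3 of 4 h (highest 0.115). Left-out libraries added calls for CDKN1C in MEL202 at 4 h (FHT-1015 replicate 2), CDKN2C in 92-1 and MP41 at 24 h (FHT-1015 replicate 3, DMSO replicate 2), CDK6 in MP41 at 24 h (DMSO replicate 3) and CDKN2B with IDE196 at 4 h (DMSO replicate 5).

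Same-numbered DMSO and FHT-1015 libraries deviated together above a correlation of 0.1 in 8 of 18 pairs (-0.418 to 0.613), so the numbers were not taken to pair them, and the IDE196 arms share no numbers. The replicate block ended 1 call, CDKN1A in MEL202 at 4 h (adjusted p = 0.0591), and kept the other 53 values on their side. With 3 replicates and the wider spread in MEL202 and MP41, small changes at 4 h may be missed there. CCND2 had too few reads to be tested in each experiment, and the part of depth in this was not tested.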
